A study of Homo sapiens with 60 samples.

Results

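The genes described here are 36 that act in the G2 phase and mitosis, chosen by symbol from the gene table and not by a cut on any measured value. Earlier results of these data were known when they were chosen. All 36 were found among its 29744 genes, and all 36 passed the filter on low counts that left 11298 genes for testing. They were measured in spheroids of HCT116, an established human colorectal cancer cell line, grown in agarose wells in DMEM of high glucose content and 10% fetal bovine serum. The spheroids belong to 12 groups of 5 libraries, since every treatment was given in Medium 2 and in Medium 1, as the labels name them. Compounds were present from day 1 to day 8. Butyrate, kynurenine and kynurenic acid were each given at 1 µM and hemin at 0.1 µM, another group received hemin and kynurenine together, and the last received nothing. Butyrate is a fatty acid from bacterial fermentation in the gut, hemin is an oxidised form of the iron-holding pigment of blood, and kynurenine and kynurenic acid are products of tryptophan breakdown, the acid being formed from kynurenine by transamination. Per the series design, part of the spheroids spent 3 h in a nutrient-deprived medium before RNA was taken, but no label says which of Medium 2 and Medium 1 that was. The 2 media also occupied different parts of the plate, wells G4 to D8 for Medium 2 and A1 to F4 for Medium 1, so medium and plate position cannot be told apart.

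Entry into mitosis is driven by the kinase CDK1 with cyclins A and B, and polo-like and Aurora kinases then direct centrosomes, chromosomes and the spindle. The spindle checkpoint holds cells until every kinetochore, the protein plate on each centromere, is attached to microtubules, after which the anaphase-promoting complex marks cyclin B for destruction and the cell divides. Transcripts of these genes are known to accumulate in late S, G2 and M phase under the control of B-MYB, FOXM1 and the DREAM complex, through a CCAAT box bound by NF-Y and a short element called CHR in their promoters.

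RefSeq promoters, which cover 250 bases before and 50 bases after the annotated start, matched 30 of the 36 genes. The CHR was searched as TTTGAA or TTCGAA and the CCAAT box as CCAAT, each on both strands. A CHR was present in 23 of 30 windows, or 76.7%, against 16.4% of all 35116 windows in the table. CCAAT was present in 24 of 30, or 80%, against 34.6% of all windows, and both motifs in 20 of 30, or 66.7%, against 6.38%. Among genes with a window that were lower in Medium 2 averaged over treatments, as described further on, 11 of 13 held a CHR and 10 of 13 held CCAAT. Of the 7 that were higher, 4 held a CHR and 6 held CCAAT, and of the 10 that did not pass, 8 held a CHR and 8 held CCAAT. No window of AURKA, BUB3, TTK, TPX2, BIRC5 or UBE2C was matched.

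The windows of the 3 genes lower in Medium 2 without treatment and of 2 genes higher in Medium 2 averaged over treatments are given here from RefSeq, to show the motifs in place, on GRCh38.p14, 5′ to 3′ on the strand of the gene, with every CHR and CCAAT match in capitals. They lie at chr4:103198294-103198593 on the minus strand for CENPE, chr1:214602945-214603244 on the plus strand for CENPF, chr10:128126374-128126673 on the minus strand for MKI67, chr10:60778081-60778380 on the plus strand for CDK1 and chr4:120066799-120067098 on the minus strand for MAD2L1. CENPF holds 4 CCAAT matches and 1 CHR, and MKI67 holds 2 of each, with 1 CHR and 1 CCAAT sharing a base. CDK1 and MAD2L1 hold 1 of each. The CENPE window holds neither, which says only that these letters are not in it.
CENPE: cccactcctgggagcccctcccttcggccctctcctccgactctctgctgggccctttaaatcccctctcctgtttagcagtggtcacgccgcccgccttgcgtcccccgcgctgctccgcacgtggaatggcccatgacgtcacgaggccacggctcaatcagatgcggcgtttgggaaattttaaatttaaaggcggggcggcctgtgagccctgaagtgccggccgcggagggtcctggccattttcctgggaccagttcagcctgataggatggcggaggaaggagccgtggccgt
CENPF: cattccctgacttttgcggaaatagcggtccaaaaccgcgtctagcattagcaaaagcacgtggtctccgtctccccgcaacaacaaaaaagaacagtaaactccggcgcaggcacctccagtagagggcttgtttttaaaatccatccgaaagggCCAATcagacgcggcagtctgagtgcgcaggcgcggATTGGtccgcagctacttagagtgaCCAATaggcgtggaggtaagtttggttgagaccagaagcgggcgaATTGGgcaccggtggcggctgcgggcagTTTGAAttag
MKI67: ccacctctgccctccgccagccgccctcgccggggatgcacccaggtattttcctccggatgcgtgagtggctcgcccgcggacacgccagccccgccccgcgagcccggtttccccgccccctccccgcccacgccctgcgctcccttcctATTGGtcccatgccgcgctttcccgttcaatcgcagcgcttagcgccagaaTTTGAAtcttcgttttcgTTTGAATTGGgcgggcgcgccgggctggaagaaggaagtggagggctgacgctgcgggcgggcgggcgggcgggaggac
CDK1: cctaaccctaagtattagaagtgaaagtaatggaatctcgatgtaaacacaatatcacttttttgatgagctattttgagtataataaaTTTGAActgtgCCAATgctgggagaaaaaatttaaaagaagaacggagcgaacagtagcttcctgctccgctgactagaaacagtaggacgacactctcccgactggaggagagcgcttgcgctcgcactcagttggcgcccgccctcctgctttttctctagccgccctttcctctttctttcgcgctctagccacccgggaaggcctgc
MAD2L1: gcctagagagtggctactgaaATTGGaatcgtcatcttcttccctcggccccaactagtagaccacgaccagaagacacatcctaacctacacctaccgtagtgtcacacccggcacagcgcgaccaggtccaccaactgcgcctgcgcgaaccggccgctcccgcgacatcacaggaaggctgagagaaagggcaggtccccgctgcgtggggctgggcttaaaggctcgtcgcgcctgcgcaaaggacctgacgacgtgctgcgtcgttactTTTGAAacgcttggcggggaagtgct

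Each value is a count of transcript 3′ ends, given as CPM, that is, relative to the scaled library total. A 3′-end count by design does not grow with transcript length. Slopes on coding length and on GC of the 3′ end, relative to the mean of all libraries, differed between libraries, as described further on. How levels compare between genes was not tested, so they are compared only roughly. Library totals ran from 1346135 to 3083231, with a median of 1901981. EPCAM averaged 372 CPM, KRT8 235 and KRT18 248 over all libraries, genes of epithelial cells, whereas KRT20 and LGALS4, markers of mature colon cells, were too low to be tested. In a bulk library, fewer cells in mitosis and less RNA per cell cannot be told apart. The 36 genes together took 0.47% to 0.635% of the counts of a library. Their mean log2 CPM differed little between groups, with the lowest group mean, 6.76 ± 0.06, in untreated spheroids of Medium 2 and the highest, 6.91 ± 0.061, with kynurenic acid in Medium 2 (SD, n = 5 each). Averaged over 60 libraries, BUB3 was highest at 529 CPM, followed by TOP2A at 425, PRC1 at 324 and MKI67 at 303. CENPA at 18.1 CPM and CDC25C at 15.1 CPM were lowest, with as few as 7 and 11 counts in a library.

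The first comparison set Medium 2 against Medium 1 without any compound. The centromere motor CENPE, the kinetochore protein CENPF and the chromosome coat protein Ki-67, encoded by MKI67, were lower in Medium 2, none of the 36 was higher, and 33 did not pass. Over all tested genes 3.69% were lower and 2.69% higher in this comparison (edgeR, adjusted p under 0.05). At an unadjusted p under 0.05 there were 7 of the 36, against 19.1% of all genes, so that count is close to the background. Their median log2 fold change was -0.08, against 0 for all genes.

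CENPE, a kinesin that carries chromosomes to the spindle equator, had 44.5, 31.3, 45.1, 38.3 and 38.3 CPM in Medium 2, against 65.8, 66.5, 68.5, 73.9 and 86.2 CPM in Medium 1. The groups did not overlap. The log2 fold change was -0.87 (SE 0.17, adjusted p = 0.000223), and it held when any library was left out. CENPF had 205, 137, 181, 127 and 163 CPM in Medium 2, against 177, 277, 238, 257 and 270 CPM in Medium 1. A single library of Medium 1, well A1, reached into the range of Medium 2, and the log2 fold change was -0.58 (SE 0.17, adjusted p = 0.0306). MKI67, the gene whose protein is stained as a marker of cycling cells, had 294, 210, 215, 142 and 255 CPM in Medium 2, against 263, 330, 325, 328 and 314 CPM in Medium 1. Here too well A1 lay within the range of Medium 2, and the log2 fold change was -0.48 (SE 0.16, adjusted p = 0.0476). Both calls were lost without any one of wells C5, B5, H4, E1, D1, C1 and B1, and that of MKI67 also without A5, with adjusted p up to 0.117 for CENPF and 0.227 for MKI67.

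All libraries of Medium 2 also lay below all of Medium 1 for BUB1B, the checkpoint kinase-like protein BubR1, and for KIF14, a cytokinesis kinesin, and above them for UBE2C, the ubiquitin-conjugating enzyme of the anaphase-promoting complex. UBE2C had 268, 344, 292, 295 and 327 CPM in Medium 2, against 250, 222, 238, 197 and 239 CPM in Medium 1, a log2 difference of 0.41 (SE 0.15, adjusted p = 0.0943). KIF14 had 69.7, 54.5, 60.5, 64.1 and 71.7 CPM in Medium 2, against 78.5, 80.1, 75.8, 92.6 and 92.8 CPM in Medium 1, a log2 difference of -0.39 (SE 0.15, adjusted p = 0.116). Neither passed over all genes, and both passed when the 2 untreated groups were fitted alone. The share of all tested genes that passed in that fit is not given here. Such full separation was found for 4.46% of all genes below and 3.99% above.

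With all 6 treatments averaged, 30 libraries a medium, 11 of the 36 genes were higher in Medium 2, 15 were lower and 10 did not pass. In this comparison 22.8% of all tested genes passed as higher and 23.3% as lower. Their median log2 fold change was -0.01, and that of all genes was -0.01 as well. Of the 8 roles by which the genes are grouped here, 4 held both higher and lower genes, the other 4 only calls of 1 direction. Of the 26 calls, 20 held when any library was left out and under all 8 other settings. TPX2 lost its call in 40 of 60 fits with a library left out, NDC80 in 32, KIF20A in 22, CENPA in 15 and CCNB1 in 1, without well A7, and TTK lost it with no filter on low counts.

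**Figure D1:**
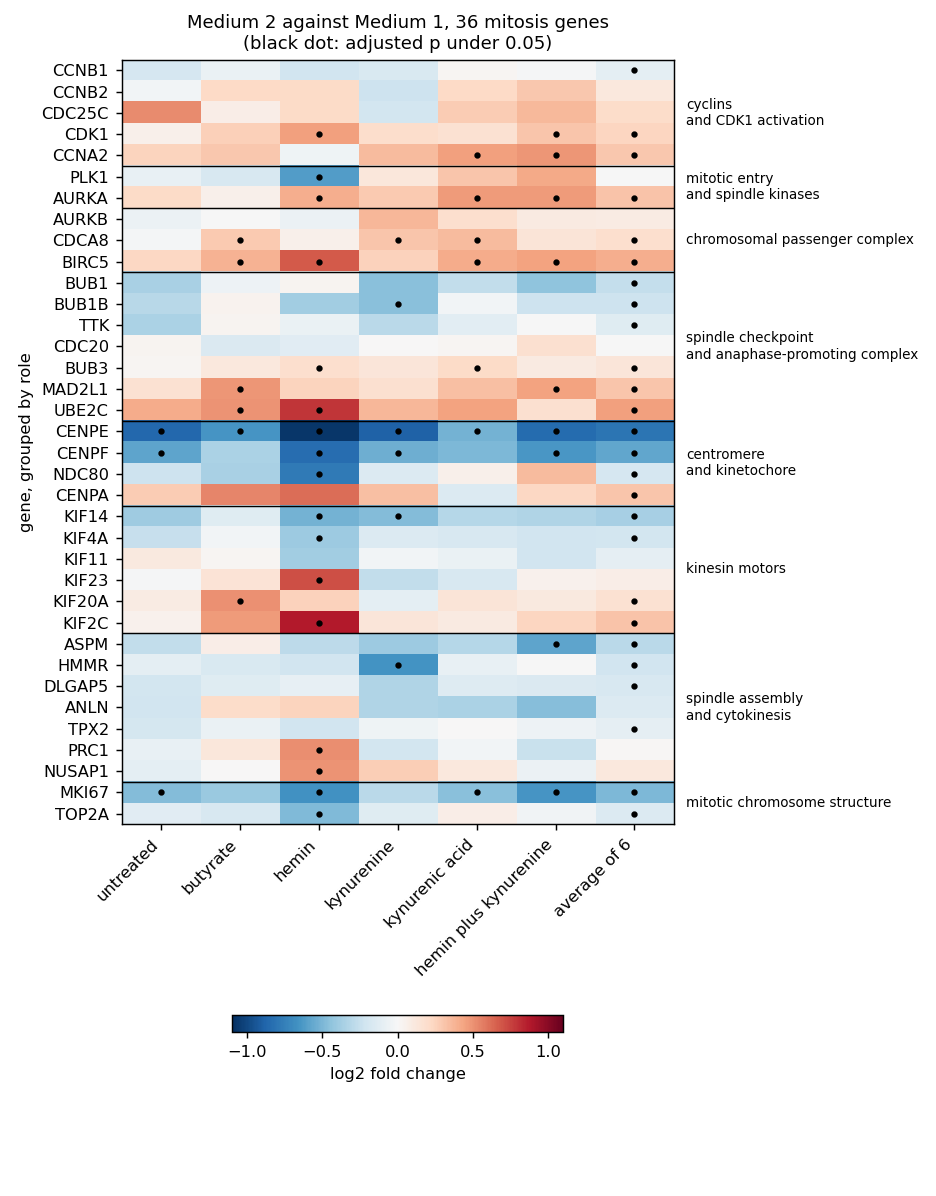
Log2 fold change of Medium 2 over Medium 1 (colour, red higher in Medium 2) for 36 mitosis genes in rows, grouped by role, in each of 6 treatments and averaged over them in columns; black dots mark adjusted p under 0.05. CENPE is lower with a dot in all 7 columns, while UBE2C, BIRC5 and AURKA are higher in all.

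Among the cyclins and the activators of CDK1, 2 of 5 were higher and 1 lower. CCNA2, cyclin A2, ran from 148 to 238 CPM in Medium 2 with a median of 178, against 105 to 207 with a median of 144 in Medium 1 (log2 fold change 0.30, SE 0.05, adjusted p = 1.86e-06). CDK1 itself was 0.24 higher on the log2 scale (SE 0.05, adjusted p = 1.22e-05), with 226 to 332 CPM and a median of 283 in Medium 2 against 155 to 297 and a median of 239 in Medium 1. CCNB1, the cyclin B1 whose destruction ends mitosis, went the other way by little, with 118 to 195 CPM and a median of 164 in Medium 2 against 141 to 198 and a median of 174 in Medium 1 (log2 fold change -0.10, SE 0.04, adjusted p = 0.0212). Cyclin B2 (CCNB2, log2 fold change 0.11) and the phosphatase CDC25C, which activates CDK1 (0.21), did not pass.

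Of the kinases of mitotic entry, AURKA, the Aurora kinase of centrosomes and spindle poles, was higher in Medium 2, with 151 to 283 CPM and a median of 200 against 125 to 211 and a median of 159 in Medium 1 (log2 fold change 0.31, SE 0.05, adjusted p = 8.31e-08). PLK1, the polo-like kinase, was at 0.00 on the log2 scale and did not pass (SE 0.07, adjusted p = 0.981). Of the chromosomal passenger complex, which corrects faulty attachments, 2 of 3 genes were higher. BIRC5, which encodes survivin, had 142 to 221 CPM and a median of 184 in Medium 2, against 100 to 176 and a median of 141 in Medium 1 (log2 fold change 0.40, SE 0.05, adjusted p = 4.08e-10). CDCA8, or borealin, was 0.19 higher (SE 0.04, adjusted p = 0.000112), and the kinase of the complex, AURKB, had a log2 fold change of 0.09 and did not pass.

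The spindle checkpoint and the anaphase-promoting complex divided evenly, with 3 of 7 higher and 3 lower. UBE2C rose most of all 36, with 262 to 447 CPM and a median of 321 in Medium 2, against 157 to 364 and a median of 239 in Medium 1 (log2 fold change 0.45, SE 0.06, adjusted p = 1.88e-08). MAD2L1, the MAD2 protein that blocks CDC20, was 0.31 higher (SE 0.05, adjusted p = 1.05e-06), with 107 to 230 CPM and a median of 187 in Medium 2 against 111 to 190 and a median of 150 in Medium 1. BUB3, which carries BUB1 and BubR1 to kinetochores, was 0.13 higher (SE 0.03), whereas its partners were lower, BUB1 by a log2 fold change of -0.26 (SE 0.08) and BUB1B by -0.23 (SE 0.06). The checkpoint kinase TTK was at -0.13 (SE 0.05, adjusted p = 0.0146), and CDC20, the activator of the anaphase-promoting complex, at -0.01 did not pass.

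At the centromere and kinetochore, 3 of 4 genes were lower. CENPE fell most of all 36, with 29.1 to 62.2 CPM and a median of 44.8 in Medium 2, against 58.7 to 112 CPM and a median of 78.6 in Medium 1 (log2 fold change -0.81, SE 0.07, adjusted p = 8.13e-16). CENPF had 113 to 260 CPM and a median of 177 in Medium 2, against 177 to 374 CPM and a median of 258 in Medium 1 (log2 fold change -0.57, SE 0.07, adjusted p = 8.46e-10). NDC80, which binds microtubules at the kinetochore, was at -0.19 (SE 0.08, adjusted p = 0.0421). CENPA, the histone that marks the centromere, was higher at 0.31 (SE 0.13, adjusted p = 0.0392), from low counts.

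Of the kinesin motors, 2 of 6 were higher and 2 lower. KIF2C, which shortens microtubules at kinetochores, had 91.7 to 184 CPM and a median of 137 in Medium 2, against 58.7 to 157 CPM and a median of 120 in Medium 1 (log2 fold change 0.31, SE 0.07, adjusted p = 0.000348). KIF14 had 43.7 to 82.6 CPM and a median of 64.7 in Medium 2, against 57.4 to 102 CPM and a median of 80.6 in Medium 1 (log2 fold change -0.36, SE 0.06, adjusted p = 1.68e-06). KIF4A, a motor of chromosome arms and the central spindle, was lower at -0.20, and KIF20A, a cytokinesis motor, higher at 0.17. KIF11, which pushes spindle poles apart, at -0.10 and KIF23, of the central spindle, at 0.08 did not pass.

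None of the 7 genes of spindle assembly and cytokinesis was higher, and 4 were lower. ASPM, a spindle pole protein, had 34.6 to 124 CPM and a median of 97.2 in Medium 2, against 54.6 to 169 CPM and a median of 118 in Medium 1 (log2 fold change -0.30, SE 0.08, adjusted p = 0.00142). HMMR, a microtubule-binding protein of spindle poles, was at -0.21, the microtubule stabiliser DLGAP5 at -0.18 and TPX2, the activator of AURKA on the spindle, at -0.10. NUSAP1 at 0.12, PRC1, which bundles the central spindle, at 0.01 and ANLN, or anillin of the contractile ring, at -0.15 did not pass. Both genes of chromosome structure were lower. MKI67 had 142 to 392 CPM and a median of 250 in Medium 2, against 263 to 459 CPM and a median of 343 in Medium 1 (log2 fold change -0.49, SE 0.06, adjusted p = 2.07e-09). TOP2A, the topoisomerase that untangles sister chromatids, was at -0.15 (SE 0.05, adjusted p = 0.00797).

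**Figure D2:**
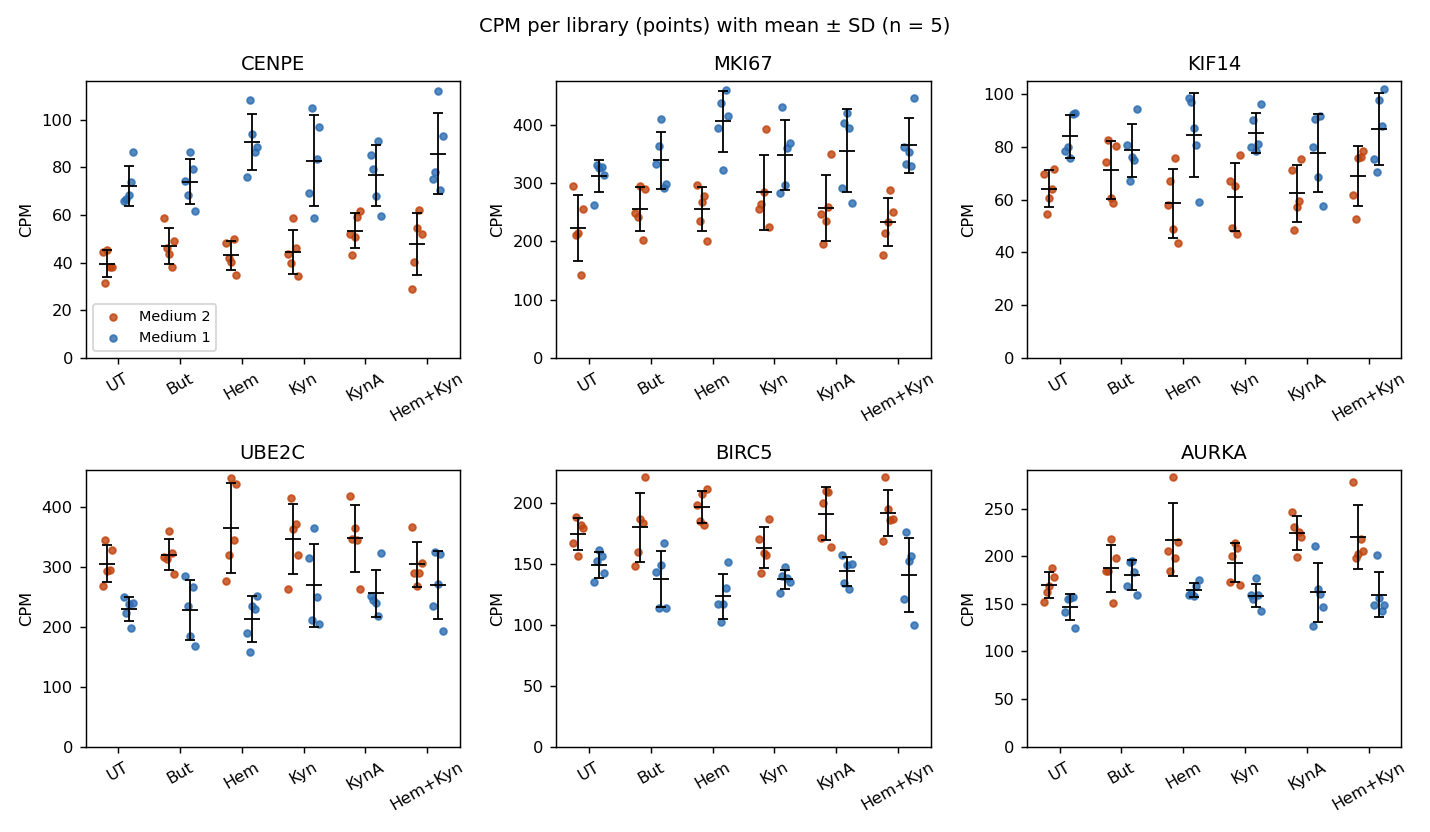
CPM per library (points; Medium 2 in red, left, and Medium 1 in blue, right) with mean and SD over 5 libraries, in the 6 treatments (UT, untreated; But, butyrate; Hem, hemin; Kyn, kynurenine; KynA, kynurenic acid), for CENPE, MKI67, KIF14, UBE2C, BIRC5 and AURKA. CENPE averages 39.5 to 53.4 CPM in the Medium 2 groups and 72.2 to 90.6 CPM in the Medium 1 groups.

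Within single treatments, 7 of the 36 genes had a higher mean in Medium 2 in all 6 (AURKA, CDK1, BUB3, MAD2L1, KIF2C, BIRC5 and UBE2C) and 7 a lower one in all 6 (MKI67, CENPE, CENPF, KIF4A, KIF14, HMMR and DLGAP5). Over all genes, 15% lay above and 16.4% below in all 6. CENPE passed in all 6 treatments. It averaged 39.5 ± 5.61 CPM in Medium 2 against 72.2 ± 8.44 in Medium 1 without treatment, 47.1 ± 7.54 against 74 ± 9.43 with butyrate and 43 ± 6.12 against 90.6 ± 11.9 with hemin (SD, n = 5 each). It averaged 44.5 ± 9.2 CPM in Medium 2 against 82.7 ± 19.1 in Medium 1 with kynurenine, 53.4 ± 7.29 against 76.6 ± 12.7 with kynurenic acid, and 47.7 ± 13 against 85.8 ± 17.1 with hemin plus kynurenine. The smallest difference was that with kynurenic acid (log2 fold change -0.52, adjusted p = 0.0319), and it alone among these 6 calls was lost when a library was left out, namely well E3, F3, H3, C7, D7 or E7.

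With butyrate, 5 genes were higher in Medium 2 and CENPE lower, in a comparison with 4.51% of genes higher and 5.37% lower. MAD2L1 was 0.49 higher (SE 0.13, adjusted p = 0.00709), with 210, 217, 189, 165 and 204 CPM in Medium 2 against 130, 111, 141, 173 and 148 CPM in Medium 1. UBE2C, KIF20A, BIRC5 and CDCA8 made up the rest, with log2 fold changes from 0.29 to 0.51, and only 3 of the 6 calls were left without well G1, H1, F5 or H5. UBE2C and BIRC5 also lost theirs without B2, and KIF20A and CDCA8 lost theirs in 8 of 10 fits each.

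With hemin, 9 genes were higher and 8 lower, in a comparison with 12.6% of genes higher and 11.4% lower. KIF2C had 124, 184, 153, 163 and 175 CPM in Medium 2, against 80.8, 63, 95.1, 72.7 and 126 CPM in Medium 1 (log2 fold change 0.87, SE 0.18, adjusted p = 0.000332). UBE2C was at 0.79, KIF23 at 0.71 and BIRC5 at 0.67, and PRC1, NUSAP1, CDK1, AURKA and BUB3 were also higher. NDC80 at -0.78, PLK1 at -0.61 and TOP2A at -0.49 were lower with CENPE, CENPF, MKI67, KIF14 and KIF4A. PLK1 had 79.3, 72.2, 78.5, 83.1 and 65.6 CPM in Medium 2, against 145, 135, 98.3, 123 and 76.1 CPM in Medium 1. AURKA lost its call without well C6, NUSAP1 without C2, D2 or E6, PRC1 without C2, D2, F2, C6 or E6, KIF4A in 6 of 10 fits and BUB3 in 8 of 10, and the other 12 held.

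With kynurenine, CDCA8 was higher and 5 genes lower, in a comparison with 3.73% of genes higher and 4.28% lower. The lower genes were CENPE, HMMR, CENPF, KIF14 and BUB1B. HMMR had 48.4, 61.2, 93.7, 51.4 and 69.6 CPM in Medium 2, against 77.3, 112, 114, 112 and 102 CPM in Medium 1 (log2 fold change -0.66, SE 0.15, adjusted p = 0.0032). There were 2 calls without well A3, C3 or G6 and 3 without D3 or A7, and those of CENPE and HMMR held in all 10 fits with a library left out.

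With kynurenic acid, 5 genes were higher and 2 lower, in a comparison with 4.3% of genes higher and 4.26% lower. AURKA had 247, 231, 199, 225 and 220 CPM in Medium 2, against 127, 211, 166, 160 and 147 CPM in Medium 1 (log2 fold change 0.47, SE 0.11, adjusted p = 0.00487). CCNA2 at 0.45, BIRC5 at 0.41, CDCA8 at 0.35 and BUB3 at 0.21 were also higher, and CENPE and MKI67 lower. There were 4 calls without well F3, G3, C7 or D7, 3 without E7 or F7 and 2 without H3. CCNA2 also lost its call without A4 or G7 and CDCA8 without A4, and that of AURKA held in all 10 fits with a library left out.

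With hemin plus kynurenine, 5 genes were higher and 4 lower, in a comparison with 8.02% of genes higher and 8.32% lower. The higher genes were CCNA2 at 0.48, AURKA at 0.47, MAD2L1 at 0.45, BIRC5 at 0.44 and CDK1 at 0.30, and the lower ones CENPE, MKI67, CENPF and ASPM, at -0.85 to -0.58. ASPM had 34.6, 66.4, 116, 97.6 and 110 CPM in Medium 2, against 124, 103, 134, 105 and 169 CPM in Medium 1, and its call was lost without well D4, F4, H7 or A8. CDK1 lost its call without any of 8 libraries and CENPF without F4.

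The direction of the difference between media ran along with the length of the coding sequence, a property that played no part in the choice of genes. Coding length was taken from the annotated transcript in GENCODE v29. Of the 12 genes with the longest coding sequence, 2880 to 10431 nucleotides, 9 were lower in Medium 2 averaged over treatments and 0 higher, with a median log2 fold change of -0.24. Of the 12 shortest, 420 to 1299 nucleotides, 9 were higher and 1 lower, with a median of 0.27. The 12 between them had 2 higher and 5 lower, with a median of -0.01. Across the 36 genes, which are not independent replicates, Spearman's rho of log2 fold change and coding length was -0.84. It was -0.76 without treatment and lay between -0.79 and -0.57 with each of the compounds. Averaged over treatments, rho was -0.75 with exon count, -0.65 with gene span, -0.61 with mRNA length and 0.33 with GC of the transcript 3′ end. The trend is therefore not particular to coding length, which had the strongest rho of these properties among the 36 genes.

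The same trend was present over the whole table and weaker. Over 10660 other tested genes rho was -0.34 with coding length and -0.35 with exon count. Other genes in the length range of the longest 12 were higher in 9.16% and lower in 48.1% of cases with a median of -0.20, and those in the range of the shortest 12 were higher in 30.4% and lower in 14.6% with a median of 0.06. Among 102 other mitosis genes rho was -0.47 with coding length and -0.53 with exon count. For 22 S-phase replication genes it was 0.03 and -0.15. For each library, log2 CPM was also taken relative to each gene's mean over all libraries. Its slope per doubling of coding length, over 7384 genes, ran from -0.168 to 0.044 with a median of -0.039 in Medium 2. In Medium 1 it ran from -0.064 to 0.096 with a median of 0.054. These slopes are relative, so only differences between libraries can be read from them. The part of this whole-library slope in the differences of the 36 genes was not tested.

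**Figure D3:**
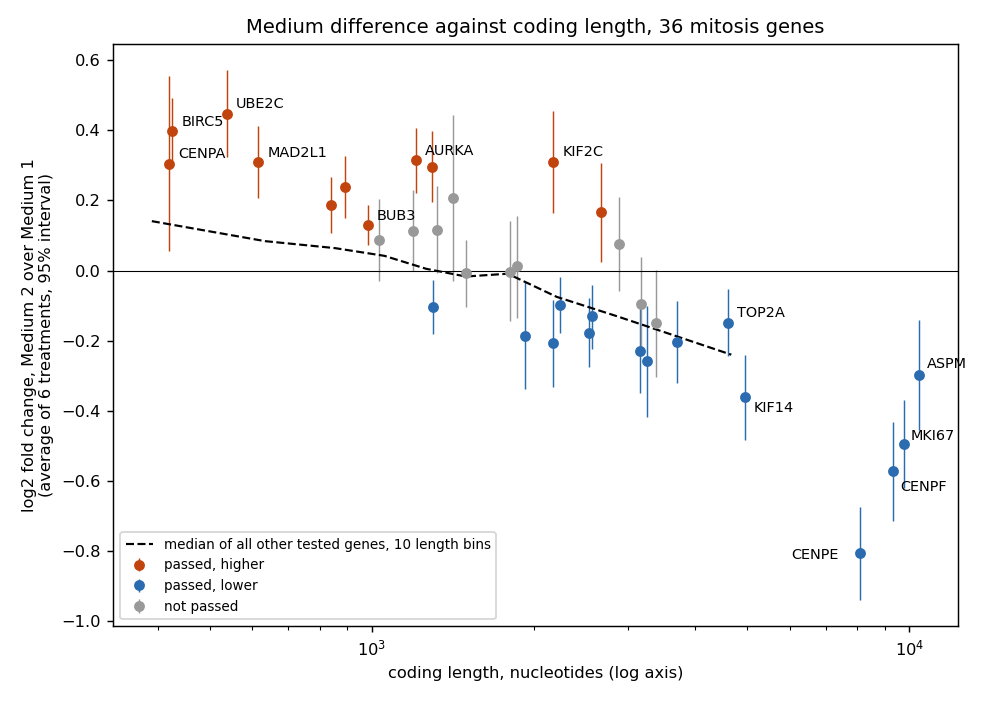
Log2 fold change of Medium 2 over Medium 1 averaged over treatments (vertical axis, bars 95% intervals) against coding length in nucleotides (horizontal, log axis) for 36 mitosis genes, with the median of all other tested genes in 10 length bins as a dashed line. CENPE, CENPF and MKI67, of 8103 to 9768 nucleotides, lie lowest, and UBE2C, BIRC5, MAD2L1 and CENPA lie above the dashed line.

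Other genes of the same processes were counted from lists of further kinetochore, anaphase-promoting complex, chromosome, spindle and regulator genes. Of 102 measured in the first 6 lists together, 36 were higher and 26 lower in Medium 2 averaged over treatments, where 22.8% of all genes were higher and 23.3% lower. Of 22 other kinetochore genes 12 were higher and 6 lower, among them MIS12 at 0.88 (SE 0.06) and CENPN at 0.35, against NUF2, the partner of NDC80, at -0.46. Of 16 other subunits and partners of the anaphase-promoting complex 5 were higher and 3 lower, with ANAPC13 at 0.36 and the inhibitor FBXO5 at 0.39. Of 19 condensin and cohesin genes 4 were higher and 9 lower, with SMC4 at -0.34 and PDS5A at -0.26. Of 23 other spindle, centrosome and cytokinesis genes 3 were higher and 6 lower, with STIL, needed for centriole duplication, at 0.77 and the kinesin KIFC1 at -0.45, with the microtubule polymerase CKAP5 at -0.43.

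Of 11 measured regulators of transcription of mitosis genes, 5 were higher and 2 lower, against 22.8% of all genes higher and 23.3% lower, which also apply to the lists that follow. FOXM1 was at 0.07 averaged over treatments (adjusted p = 0.56) and -0.53 without treatment (adjusted p = 0.163). MYBL2, which encodes B-MYB, was at 0.21 averaged over treatments (adjusted p = 0.00476). The pocket protein gene RBL2 was at -0.66 and the repressor E2F8 at 0.89. Of 11 regulators of CDKs, 7 were higher and none lower, including the inhibitors CDKN1B at 0.77 and CDKN1A at 0.62 (adjusted p = 3.71e-16), the phosphatase CDC25A at 0.64 and the kinase WEE1 at 0.46. CDKN1A was also higher without treatment (0.66, adjusted p = 0.000123). Of 22 S-phase genes, 11 were higher and 1 lower, with RRM2 at 0.44 and MCM2 at 0.70.

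Each compound was then set against untreated spheroids of the same medium. Every group filled its own run of consecutive wells, so compound and plate position cannot be told apart in these comparisons. No gene of the 36 passed in any of these 10 comparisons, which share their 5 untreated libraries within a medium, and few genes of the whole table did. Of all tested genes, the percentages that passed as higher and as lower were 0% and 0% for butyrate in Medium 2, 0.00885% and 0% for butyrate in Medium 1, 0% and 0% for hemin in Medium 2, and 0.0443% and 0.0885% for hemin in Medium 1. They were 0.0177% and 0.00885% for kynurenine in Medium 2, 0.0354% and 0% for kynurenine in Medium 1, 0% and 0.0177% for kynurenic acid in Medium 2, and 0% and 0% for kynurenic acid in Medium 1. They were 0.31% and 0.248% for hemin plus kynurenine in Medium 2, and 0.0266% and 0% for it in Medium 1. At an unadjusted p under 0.05 there were 2 of the 36 genes against 3.55% of all genes for butyrate in Medium 2, and 6 against 8.54% in Medium 1. For hemin there were 4 against 7.57% in Medium 2 and 12 against 21.5% in Medium 1, and for kynurenine 3 against 6.92% in Medium 2 and 1 against 3.79% in Medium 1. For kynurenic acid there were 7 against 7.97% in Medium 2 and 0 against 3.27% in Medium 1, and for hemin plus kynurenine 9 against 13.6% in Medium 2 and 0 against 4.97% in Medium 1. DESeq2 called TOP2A and PLK1 for hemin in Medium 1 and NDC80 for hemin plus kynurenine in Medium 2, and none elsewhere. The share of all genes that DESeq2 called is not given here, so these calls cannot be read as particular to the 36 genes.

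**Figure D4:**
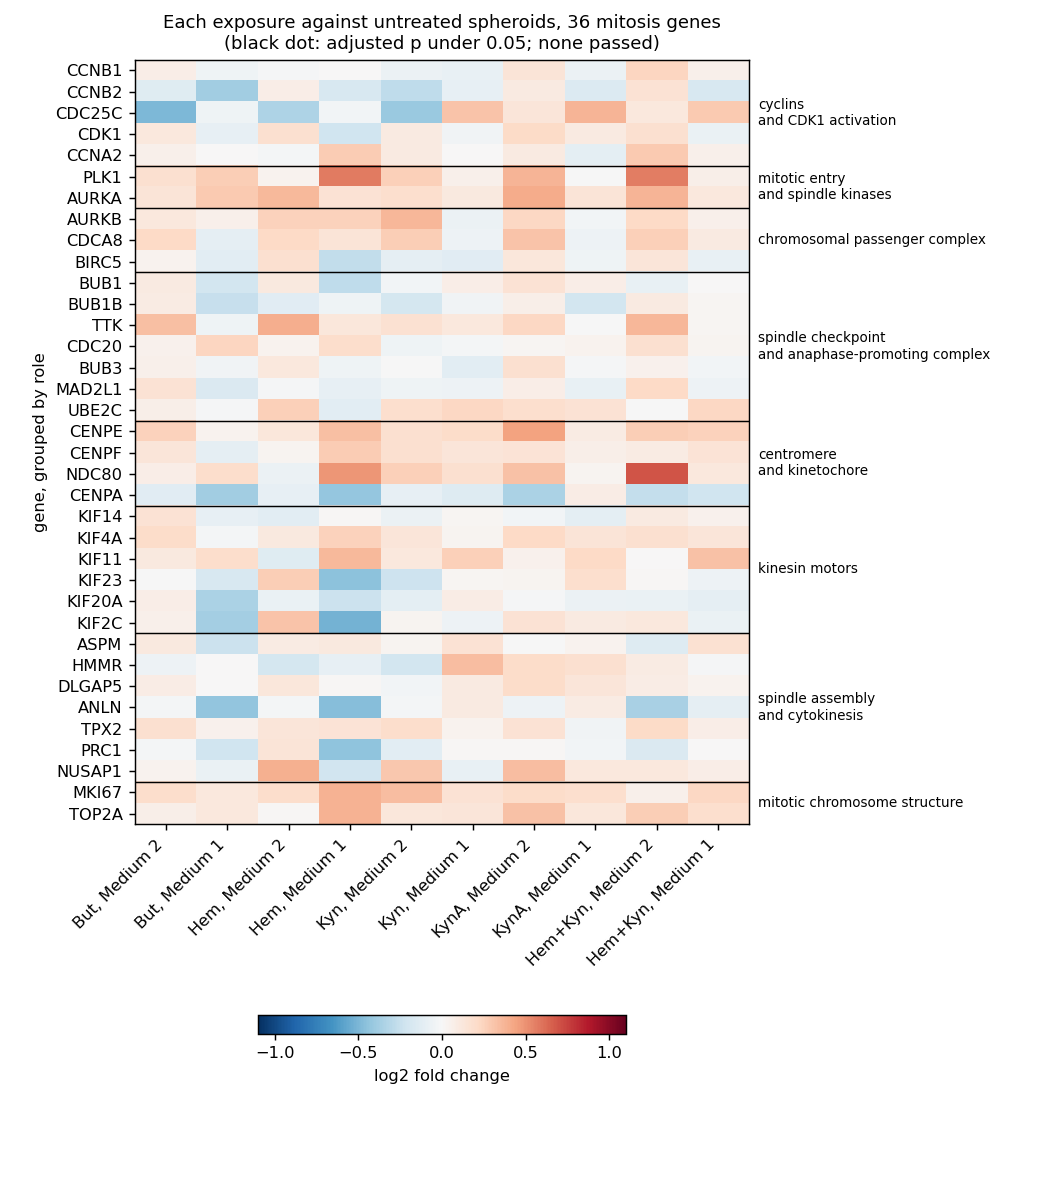
Log2 fold change of each compound over untreated spheroids of the same medium (colour, red higher with the compound) for 36 mitosis genes in rows, grouped by role, with Medium 2 left of Medium 1 for each compound (But, butyrate; Hem, hemin; Kyn, kynurenine; KynA, kynurenic acid). No cell carries a dot, since none reached an adjusted p under 0.05, and NDC80 with hemin plus kynurenine in Medium 2, at 0.69, is the highest value.

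Hemin in Medium 1 had the most of the 36 genes with a small unadjusted p, and also the largest share of all genes. PLK1 had 145, 135, 98.3, 123 and 76.1 CPM with hemin, against 78, 75.5, 70.3, 90.2 and 76.4 CPM untreated (log2 fold change 0.57, SE 0.17, adjusted p = 0.0674). KIF2C had 80.8, 63, 95.1, 72.7 and 126 CPM with hemin, against 136, 109, 136, 134 and 110 CPM untreated (log2 fold change -0.52, SE 0.18, adjusted p = 0.0886). In both, the last hemin library, well G2, lay within the untreated range and the other 4 lay on one side of it. TOP2A had 582, 590, 481, 574 and 370 CPM with hemin, against 329, 422, 448, 415 and 385 CPM untreated (log2 fold change 0.38, SE 0.12, adjusted p = 0.068), with the same library apart. Without well G2, 7 genes passed, namely PLK1, TOP2A, CCNA2 and NDC80 as higher and KIF2C, KIF23 and PRC1 as lower. The share of all tested genes that passed in that fit is not given here, so the 7 cannot be read as particular to these genes.

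PLK1 was also high, and PRC1 low, in single libraries of other groups. PRC1 had 188, 211, 270, 221 and 386 CPM with hemin in Medium 1, in the same order of wells as above, against 351, 335, 416, 332 and 303 CPM untreated. In well B2, with butyrate in Medium 1, PLK1 was at 157 CPM and PRC1 at 137 CPM, and in well H7, with hemin plus kynurenine in Medium 2, they were at 165 and 164 CPM. PLK1 lay above 110 CPM in 7 libraries, in which PRC1 had a median of 211 CPM, and at or below it in 53 libraries, in which PRC1 had a median of 335 CPM. This cut falls in a gap of the PLK1 values, between 102 and 117 CPM. Of the 630 pairs among the 36 genes, PLK1 and PRC1 had the lowest correlation of log2 CPM within groups (r = -0.827, median of all pairs 0.062). The split describes a pair at the extreme and is not a test.

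A property of the whole library was recorded beside these values. Log2 CPM relative to each gene's mean over all libraries was set against GC in the last 300 bases of the transcript, over 7384 genes. Its slope per 10% of GC lay above a cut of 0.1 in 4 libraries, at 0.223 in A7, 0.164 in F2, 0.159 in B2 and 0.143 in H7. It was -0.078 to 0.093 in the other 56, with well G1 nearest to the cut. PLK1 ran from 95 to 165 CPM and PRC1 from 137 to 271 CPM in these 4 libraries, against 61 to 145 and 188 to 416 CPM in the other 56. Among the hemin libraries of Medium 1 the slope was 0.0685 in C2, 0.0548 in D2, -0.0031 in E2, 0.1642 in F2 and 0.024 in G2. Its part in the values of PLK1 and PRC1 was not tested. Without the 4 libraries, a setting chosen after seeing the data, PLK1 passed for hemin in Medium 1 and NDC80 for hemin plus kynurenine in Medium 2. The share of all tested genes that passed in that fit is not given here, so these calls cannot be read as particular to these genes.

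**Figure D5:**
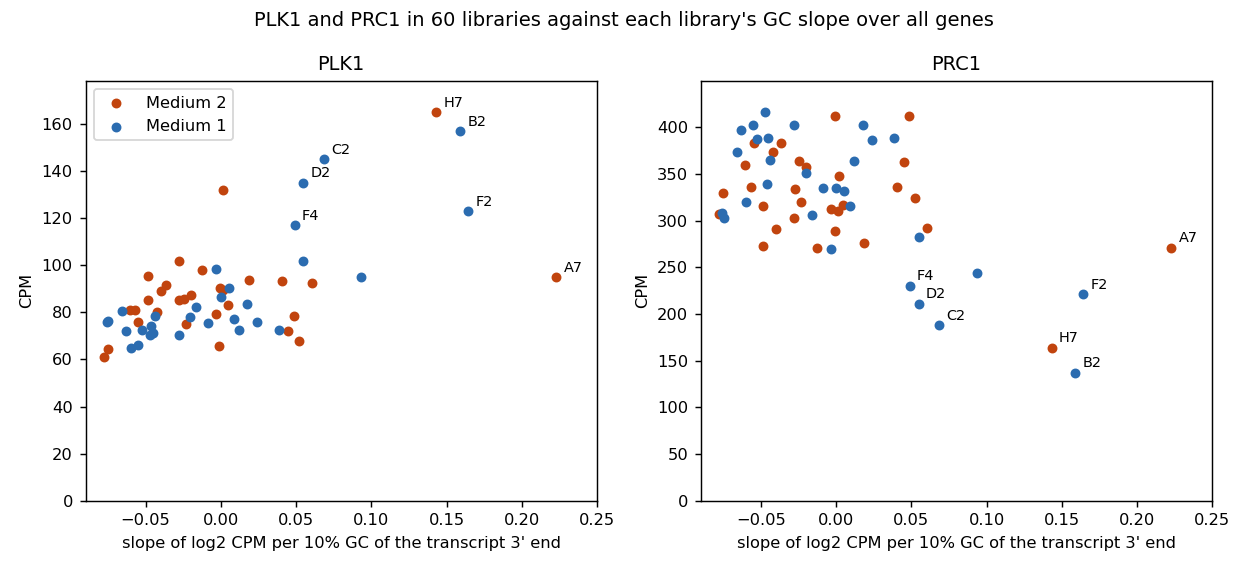
CPM of PLK1 (left) and PRC1 (right) in each of 60 libraries (points, Medium 2 red, Medium 1 blue) against that library's GC slope, with 7 wells labelled. It is the slope of log2 CPM, relative to the mean of all libraries, per 10% of GC in the transcript 3′ end. Wells B2 and H7 hold the highest PLK1, 157 and 165 CPM, and the lowest PRC1, 137 and 164 CPM.

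In Medium 2 the values with hemin plus kynurenine and with kynurenic acid lay mostly above untreated, 29 and 31 of the 36 genes, with medians of 0.12 and 0.16, against 49.8% and 51.1% of all genes above. With butyrate 29 also lay above (median 0.08, 49.8% of all genes), with hemin 24 (0.10, 50.1%) and with kynurenine 19 (0.03, 49.9%). All these comparisons share the untreated libraries of Medium 2, the group with the lowest mean of the 36 genes. The genes are also not independent replicates. In Medium 1, 13 of the 36 lay above untreated with butyrate, 19 with hemin and 23 with kynurenine. There were 21 with kynurenic acid and 25 with hemin plus kynurenine, against 48.1% to 50.2% of all genes in these Medium 1 comparisons. In Medium 2, NDC80 had 62.4, 80.8, 75.4, 103 and 104 CPM with hemin plus kynurenine, against 72.9, 49.7, 49.5, 46.9 and 43.3 CPM untreated (log2 fold change 0.69, SE 0.19, adjusted p = 0.0641). It passed without well G4, in a fit for which the share of all tested genes is not given here. AURKA had 278, 198, 202, 218 and 205 CPM with hemin plus kynurenine, and 247, 231, 199, 225 and 220 CPM with kynurenic acid, against 152, 162, 169, 188 and 178 CPM untreated. All libraries of both compounds lay above the untreated ones, and the log2 fold changes were 0.38 (adjusted p = 0.107) and 0.40 (adjusted p = 0.269). TTK with hemin (0.40, adjusted p = 0.41) was the gene with the smallest p for that compound in Medium 2, and with butyrate it was TTK as well (0.33, adjusted p = 1). In Medium 2, such separation above untreated was found for 3 of the 36 genes with hemin plus kynurenine (AURKA, PLK1 and TTK), against 2.2% of all genes. With kynurenic acid it was found for 2 (AURKA and CDCA8), against 1.05% of all genes. Separation below was found for 0 of the 36 with either, against 1.6% and 0.876% of all genes.

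Whether a compound acted differently in Medium 2 and in Medium 1 was tested as the difference of the 2 responses. No gene of the 36 passed for any of the 5 compounds. Over all genes, 0% were higher and 0% lower for butyrate, hemin and kynurenic acid, 0% and 0.0177% for kynurenine, and 0% and 0.0266% for hemin plus kynurenine. At an unadjusted p under 0.05 there were 2 of the 36 for butyrate against 4.28% of all genes, 10 for hemin against 13.3%, and 3 for kynurenine against 3.7%. There was 1 for kynurenic acid against 4.63% and 3 for hemin plus kynurenine against 8.68%, and DESeq2 called none of the 36. KIF2C had the smallest p for hemin, with a response 0.83 higher on the log2 scale in Medium 2 than in Medium 1 (SE 0.25, adjusted p = 0.225). It passed when well G2 was left out, in a fit for which the share of all tested genes is not given here.

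Kynurenic acid and kynurenine were compared at 1 µM in each medium, 2 pairs in all. No gene of the 36 passed in either medium, where 0% of all genes passed as higher and 0.00885% as lower for Medium 2, and 0% and 0.0354% for Medium 1. At an unadjusted p under 0.05 there were 4 of the 36 in Medium 2, against 5.9% of all genes, and 0 in Medium 1, against 3.74%, and DESeq2 called none of the 36. CCNB2 (log2 difference 0.39, 95% interval 0.10 to 0.67, adjusted p = 0.716) and HMMR (0.41, 0.10 to 0.72, adjusted p = 0.716) had the smallest p in Medium 2. In Medium 1 it was BUB3, with a log2 difference of 0.10 and an interval of -0.04 to 0.24 (adjusted p = 1). These intervals leave room for differences of either compound on single genes, so the 2 compounds are not shown to act alike.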

How the data were processed

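RNA of HCT116 spheroids was sequenced with QuantSeq 3′ FWD libraries that carry unique molecular identifiers, made from 48 ng of RNA with 18 PCR cycles, per the labels' protocols. The submitters' processing notes name Salmon 1.5.2, STAR, cutadapt 3.4, UMI-tools 1.1.2 and FastQC 0.11.9, with the build GRCh38. Not given in the sources used here are their settings, the gene annotation, the use of strand and the treatment of reads that match several genes. The authors deposited an estimated count for each gene and library, none of them scaled. Of the nonzero deposited values 21.4% were not whole, and all were rounded before testing.

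Groups come from the sample titles, which number 5 biological replicates, and the columns give group and plate well only. Nothing says whether replicates were separate cultures, and the p-values then reflect only how these libraries vary. All 120 pairs of libraries within a group differed by more than sampling noise, with chi-square per degree of freedom from 2.18 to 19.6. The 36 genes and the other lists were chosen with earlier results of these data known.

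Genes were filtered with edgeR's filterByExpr (minimum count 10, minimum total 15), which kept 99.62% of the counts, and libraries were scaled by TMM. The quasi-likelihood fit of edgeR 4.0.16 (R 4.3.3) took in all 60 libraries and 12 group means, leaving 48 residual degrees of freedom at a common dispersion of 0.0316. Two-sided F-tests were adjusted by Benjamini and Hochberg over 11298 genes at a threshold of 0.05. The script was tested on simulated data. DESeq2 1.42.0 was an alternative, and others are described in the closing section. Members were named in full by rule: those that passed without treatment, the 5 largest rises and falls averaged over treatments, and MKI67, CCNB1, CDK1, PLK1, AURKA and CENPE. HMMR, NDC80, PRC1, TOP2A, CCNA2 and TTK were added after their values were seen, and genes of the other lists are among the 4 with the smallest p of their list, besides FOXM1, MYBL2 and CDKN1A. Promoters are RefSeq on GRCh38.p14, and coding lengths are GENCODE v29 on GRCh38.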

Additional observations from a re-analysis of the deposited data

Results flagged for a closer look

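In 168 sets of 5 libraries, 13 genes and the mean over all 36 genes in each of 12 groups, the library farthest out was compared with the other 4 by Dixon's test, whose critical value is 0.71. The 168 sets are not independent, as the same libraries recur across genes. The library farthest out stood apart in 11 of them, close to the 1 in 20 that chance gives. Of these, 4 concern PLK1, always as the highest library: 157 CPM in well B2 (butyrate, Medium 1) against 70.4 to 95.1 in the others, 117 CPM in F4 (hemin plus kynurenine, Medium 1) against 66.2 to 78.5, 132 CPM in G7 (kynurenic acid, Medium 2) against 81.2 to 92.6, and 165 CPM in H7 (hemin plus kynurenine, Medium 2) against 89.5 to 102. AURKA was highest at 278 CPM in H7 against 198 to 218, and at 201 CPM in C4 (hemin plus kynurenine, Medium 1) against 143 to 156.

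MKI67 was at 445 CPM in F4 against 329 to 362 in the other libraries of the group, and at 263 CPM in A1 (untreated, Medium 1) against 314 to 330. ASPM was at 54.6 CPM in B2 against 102 to 113. In A7 (kynurenine, Medium 2), CENPF was at 203 CPM against 176 to 183, and MAD2L1 at 107 CPM against 181 to 198. Wells B2, H7 and A7 are among the 4 libraries whose GC slope stands apart.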

How the results depend on the processing

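No result of the 36 genes changed direction while past the threshold under any setting tried. No paired analysis was possible because the columns carry no replicate numbers. Without a compound, 3 calls became 5 when the 2 groups were fitted alone. With butyrate, 6 became 3 with no filter on low counts and 3 with plate row as a term. With kynurenine, 6 became 3 with no filter, 3 with plate row, 2 with counts thinned to the lowest total and 2 with the groups alone. With kynurenic acid, 7 became 4 with no filter and 4 with thinning. For hemin against untreated in Medium 1, 0 became 1 with no filter, 1 with the groups alone, 2 with DESeq2 and 1 without the 4 libraries apart on the GC slope. For hemin plus kynurenine against untreated in Medium 2, 0 became 1 with DESeq2 and 1 without those 4. The cause was not tested. Leaving out each library in turn gave 1 to 3 calls between untreated media, 22 to 26 averaged over treatments, 3 to 7 with butyrate, 13 to 18 with hemin, 2 to 7 with kynurenine, 2 to 7 with kynurenic acid and 7 to 10 with both compounds. It gave 0 to 7 for hemin against untreated in Medium 1, 0 to 1 for hemin plus kynurenine against untreated in Medium 2, 0 to 1 for the difference of the hemin responses, and 0 in all fits of the other comparisons. Averaged over treatments, calls were 22 to 28 under the other settings, with 28 when the GC slope was a term. That setting and the one without 4 libraries were chosen after seeing the data. For all these settings and left-out libraries, the share of all tested genes that passed is not given here. A change in the count of calls therefore cannot be told apart from a change over the whole table. With totals of 1346135 to 3083231 counts, CENPA and CDC25C rest on few counts per library, and small differences in them were not detectable at this depth.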
